A study of Mus musculus with 2 samples.

Results

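The genes described here are 9 writers, erasers and readers of DNA methylation: the methyltransferases Dnmt1, Dnmt3a and Dnmt3b, the Dnmt1 recruiter Uhrf1, the dioxygenases Tet1, Tet2 and Tet3, and the methyl-CpG-binding family members Mbd2 and Mbd3. They were taken by gene symbol from a table of 19595 genes, and each symbol matched 1 row. The libraries were made from neural stem cells of the brain, taken from mice of the ICR strain on embryonic day 13. The knockdown library is labelled sh1 with the genotype KO, and the control library is labelled psicor with the genotype WT. The study asks what Ccdc25, a protein with a coiled coil, does in brain development, and its design text names a knockdown in triplicate. The table holds 1 column of counts per group, so the comparison below has no replicate check and no p-value. The control label is also the name of a lentiviral vector for hairpin RNAs, pSicoR. Neither the promoter of the hairpin nor the number of cultures behind a column is stated in the labels.

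In mammals, methyl groups sit mostly on the cytosine of CG dinucleotides. At replication the new strand is unmethylated, and Uhrf1 binds the hemimethylated sites and brings in Dnmt1, which copies the pattern. Dnmt3a and Dnmt3b methylate sites that carried no mark. Tet enzymes oxidise methylated cytosine, and the base excision repair enzyme Tdg removes the oxidised forms. Mbd2 binds methylated DNA and joins the NuRD complex, a nucleosome remodeller and histone deacetylase. Mammalian Mbd3 belongs to a separate NuRD assembly and binds methylated DNA poorly. In the developing cortex, methylation at the promoters of astrocyte genes such as Gfap is known to be lost as progenitors pass from making neurons to making glia. DNA methylation itself was not measured in these libraries, which report RNA.

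The maintenance pair was lower in the knockdown library, the erasers Tet2 and Tet3 were modestly higher, and the readers Mbd2 and Mbd3 stood at nearly the same level in both. Uhrf1 was lowest relative to the control, with a ratio of 0.521. None of the 9 genes differed by 2-fold.

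Promoter sequences are shown for the maintenance pair because these genes are known targets of E2F, the transcription factor family that drives S phase genes, and for Tet2 as a member that was higher. The sequences are from RefSeq on GRCm38.p6, written 5′ to 3′ on the strand of the gene. Capitals mark exact matches on either strand to the E2F core letters GCGGGAA or GCGCGAA. The windows searched ran from 250 bases before each annotated start to 50 bases after it, and 8 of the 9 genes had at least 1 window. Both Dnmt1 matches lie before the start at position 20952623, but after the other annotated starts of Dnmt1. They lie inside an annotated exon, so only 27 bases are printed for each. The upstream Uhrf1 window is printed up to the first base of an annotated exon.
Dnmt1, chr9:20952826-20952852, minus strand: gtttccgcgcGCGCGAAaaagccgggg
Dnmt1, chr9:20952765-20952791, minus strand: caagatgccaGCGCGAAcagctccagc
Uhrf1, upstream start, chr17:56303087-56303320, plus strand: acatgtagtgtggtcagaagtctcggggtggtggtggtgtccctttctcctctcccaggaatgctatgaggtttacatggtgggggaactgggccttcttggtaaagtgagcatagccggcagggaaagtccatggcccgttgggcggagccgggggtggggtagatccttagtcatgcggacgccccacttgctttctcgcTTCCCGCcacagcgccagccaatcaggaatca
Uhrf1, downstream start, chr17:56304063-56304312, plus strand: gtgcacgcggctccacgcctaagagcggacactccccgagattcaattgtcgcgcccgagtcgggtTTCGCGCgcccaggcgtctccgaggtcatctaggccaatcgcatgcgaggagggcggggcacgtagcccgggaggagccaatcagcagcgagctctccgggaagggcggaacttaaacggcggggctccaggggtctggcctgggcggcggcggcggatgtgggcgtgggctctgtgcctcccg
Tet2, chr3:133544391-133544640, minus strand: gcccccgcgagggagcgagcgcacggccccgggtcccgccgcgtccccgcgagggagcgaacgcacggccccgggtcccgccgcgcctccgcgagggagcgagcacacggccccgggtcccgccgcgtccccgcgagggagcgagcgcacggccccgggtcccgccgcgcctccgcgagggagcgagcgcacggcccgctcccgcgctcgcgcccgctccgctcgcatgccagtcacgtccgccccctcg

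Matches were found for 3 of the 8 genes, namely Dnmt1, Uhrf1 and Mbd3. In Dnmt1, 1 of 3 windows held matches, at 219 to 213 and at 158 to 152 bases before the start of that window. Both lie after the other annotated starts of Dnmt1, whose windows held none. Uhrf1 held 1 match in each of its 2 windows, at 48 to 42 and at 184 to 178 bases before the start. The Mbd3 match lay at bases 9 to 15 after the start, and the level of Mbd3 was nearly the same in both libraries. No match was found in the windows of Dnmt3a, Dnmt3b, Tet1, Tet2 or Tet3. Counted by gene, 6.86% of all genes with a window of this length held either sequence, as did 13.1% of those past the expression minimum used below. Among S phase genes, 15 of 22 with a window held one. A match describes letters in a window and not a bound site. The Tet2 window held 57 CG dinucleotides, against a median of 7 over all promoter windows and 21 over those of expressed genes. Such richness was not particular to Tet2. The windows of Dnmt3a, which was lower, held 46, 47 and 18, and the richest windows of Dnmt1 and Uhrf1 held 33 each. The median over the 13 windows of the members was 22.

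Counts assigned to genes totalled 16058407 in the knockdown and 16549682 in the control library. CPM below are counts scaled to libraries of equal size with edgeR's TMM factors, and ratios and log2 folds are knockdown over control. Each interval is an exact conditional 95% interval that covers counting error only. Ccdc25, the targeted gene, had 411 counts in the knockdown and 553 in the control library, a ratio of 0.794 (0.697 to 0.904). Its log2 fold was -0.33, and 33.6% of all genes past the minimum also had an interval below 1. All 10 neural stem cell markers were higher in the knockdown library, with summed levels of 8743 and 6680 CPM in the knockdown and control libraries. Of 10 neuronal markers, 9 were lower, with sums of 1397 and 3393 CPM. All 7 astrocyte markers with a row were higher (5032 and 526 CPM), as were all 9 of the oligodendrocyte lineage (5224 and 2968 CPM). Abundant genes weigh most in such sums. Median log2 folds were 0.75 (neural stem cell), -1.80 (neuron), 3.45 (astrocyte) and 3.70 (oligodendrocyte lineage). In the last list 7 of 9 genes were higher by 2-fold or more, against 7.64% of all genes past the minimum. Its most abundant genes, Olig1 and Olig2, had ratios of 1.39 and 1.29 and stood at 2432 and 1401 CPM in the knockdown library. Of the 7 mesenchymal markers past the minimum, 6 were lower (46.0 and 333 CPM for all 8), and the 8 microglial markers summed to 11.98 and 37.2 CPM. Acta2 held 261 of the 333 mesenchymal CPM in the control library, and Pdgfrb was the marker that was higher, at a ratio of 4.56. The 4 endothelial markers with a row summed to 2.41 and 3.92 CPM, and the 2 erythroid ones to 0.380 and 0.415 CPM. Lum, Cx3cr1, Csf1r, Ptprc, C1qb and Cdh5 were at 0 in the knockdown library. The part of these differences in the values below was not tested. In bulk RNA, fewer cells of a type cannot be told apart from less RNA per cell.

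The expression minimum was a mean of 1 CPM over both libraries, and 14158 genes passed it. Of these, 15.4% differed by 2-fold or more (7.64% higher and 7.76% lower in the knockdown library). All 9 members passed this minimum, and 0 of them reached 2-fold. At 1.5-fold, 1 of the 9 (Uhrf1) was past the threshold, beside 31.6% of all genes. With counting error alone, 66.8% of the 14158 genes had an interval that excluded a ratio of 1, 33.2% above it and 33.6% below it. Among the members, 5 of 9 did, 2 above and 3 below, which is near the background share. The median log2 fold was 0.0036 over the members and -0.0042 over all genes past the minimum.

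**Figure D1:**
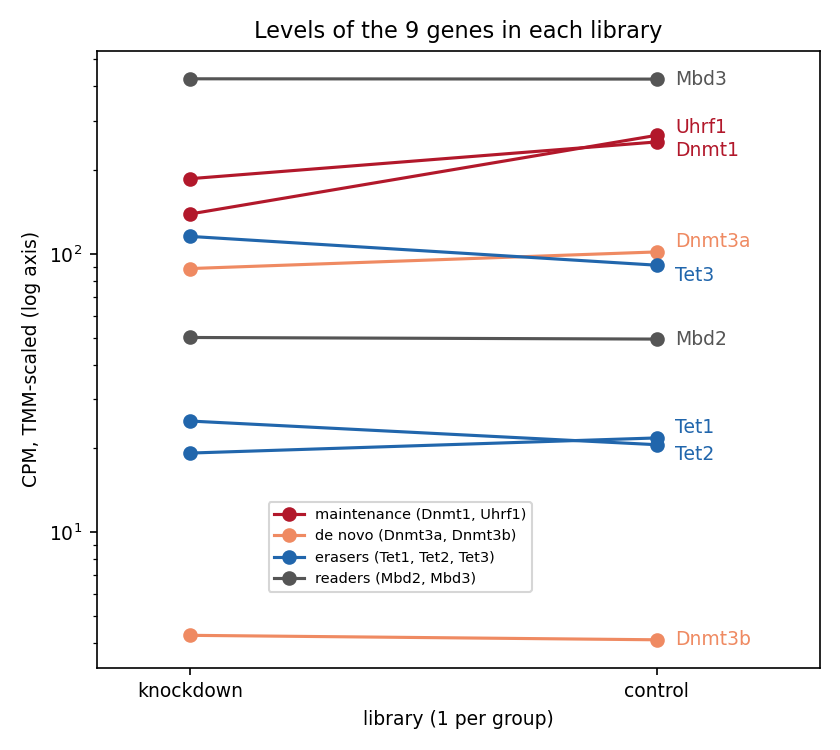
Level of each gene in CPM (TMM-scaled, log axis) in the knockdown and control libraries, 1 library per group, with a line joining the values of a gene and colours giving its role. Uhrf1 stood at 139 CPM in the knockdown and 267 CPM in the control library, and the lines of Mbd2, Mbd3 and Dnmt3b are nearly flat.

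Uhrf1 (ENSMUSG00000001228, chromosome 17, 56303321 to 56323486, plus strand, on GRCm38 as the table places it), the reader of hemimethylated DNA, had 2193 counts in the knockdown library and 4495 in the control library. These correspond to 139 and 267 CPM. The ratio was 0.521 (0.495 to 0.549), a log2 fold of -0.94, so 2-fold lay inside the counting interval. Of all genes past the minimum, 8.52% had a lower log2 fold. That share was 21.3% for Dnmt1 and 34.6% for Dnmt3a. In absolute log2 fold, 48.5% of genes differed less than Tet3 and 41.4% less than Tet2.

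Dnmt1 (ENSMUSG00000004099, chromosome 9, 20907209 to 20959888, minus strand), the maintenance methyltransferase, had 2938 counts in the knockdown and 4256 in the control library, or 186 and 253 CPM. Its ratio was 0.738 (0.704 to 0.773), a log2 fold of -0.44. The pair did not differ equally. Counts of Dnmt1 per count of Uhrf1 were 1.34 in the knockdown and 0.947 in the control library, a 1.41-fold difference (1.32 to 1.52) that does not depend on library scaling.

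Of the de novo enzymes, only Dnmt3a was well represented. Dnmt3a (ENSMUSG00000020661, chromosome 12, 3806007 to 3914443, plus strand) had 1396 counts in the knockdown and 1712 in the control library, or 88.5 and 102 CPM. This is a ratio of 0.871 (0.811 to 0.936), a smaller difference than that of Dnmt1. The Dnmt1 to Dnmt3a ratio was 0.847 times as high in the knockdown as in the control library (0.777 to 0.922). Dnmt3b (ENSMUSG00000027478, chromosome 2, 153649450 to 153687730, plus strand) had 67 and 69 counts, or 4.25 and 4.09 CPM. With so few counts its ratio of 1.04 had an interval from 0.730 to 1.47, so differences of the size found for Dnmt1 or Dnmt3a were not detectable for Dnmt3b at this depth. The Dnmt3a to Dnmt3b ratio was 0.840 times as high in the knockdown as in the control library, and its interval (0.587 to 1.20) includes 1. Summed over the 3 methyltransferases, levels were 279 CPM in the knockdown and 358 CPM in the control library, a ratio of 0.779 (0.749 to 0.810).

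Among the erasers, Tet3 and Tet2 were higher and Tet1 was not. Tet3 (ENSMUSG00000034832, chromosome 6, 83362373 to 83459084, minus strand), the most abundant per length of the 3, had 1822 counts in the knockdown and 1534 in the control library, or 116 and 91.0 CPM. Its ratio was 1.27 (1.19 to 1.36), a log2 fold of 0.34. Tet2 (ENSMUSG00000040943, chromosome 3, 133463679 to 133545139, minus strand), which unlike its paralogues has no CXXC DNA-binding domain, had 395 and 347 counts, or 25.05 and 20.6 CPM. The ratio for Tet2 was 1.22 (1.05 to 1.41). Tet1 (ENSMUSG00000047146, chromosome 10, 62804570 to 62908996, minus strand), the paralogue best known from embryonic stem cells, had 303 and 367 counts, or 19.2 and 21.8 CPM. Its ratio was 0.882 (0.755 to 1.03), and the interval lay just below 1 when libraries were scaled to total counts (0.728 to 0.993). Relative to Tet3, Tet1 was 0.695 times as high in the knockdown as in the control library (0.586 to 0.824), and relative to Tet2 0.725 times (0.585 to 0.899). For Tet2 relative to Tet3 the value was 0.958 (0.815 to 1.13), with 1 inside the interval. Tet2 shares 43 exonic bases and Dnmt3a 133 with an antisense gene, which is under 1% of either gene's exonic length (0.255% and 0.799%), and the strandedness of counting is not stated.

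Both readers lay near a ratio of 1. Mbd3 (ENSMUSG00000035478, chromosome 10, 80392539 to 80399550, minus strand) had 6718 counts in the knockdown and 7161 in the control library, or 426 and 425 CPM. It was higher in the knockdown library by 0.246%, with an interval from -3.05% to 3.65%. With scaling to total counts its ratio was 0.967 (0.935 to 0.9997), so the sign of so small a difference depended on the scaling. Mbd2 (ENSMUSG00000024513, chromosome 18, 70568189 to 70626131, plus strand) had 789 and 832 counts, or 50.03 and 49.4 CPM, giving a ratio of 1.01 (0.918 to 1.12). The quotient of Mbd2 to Mbd3 was 1.01 times as high in the knockdown as in the control library (0.911 to 1.12).

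**Figure D2:**
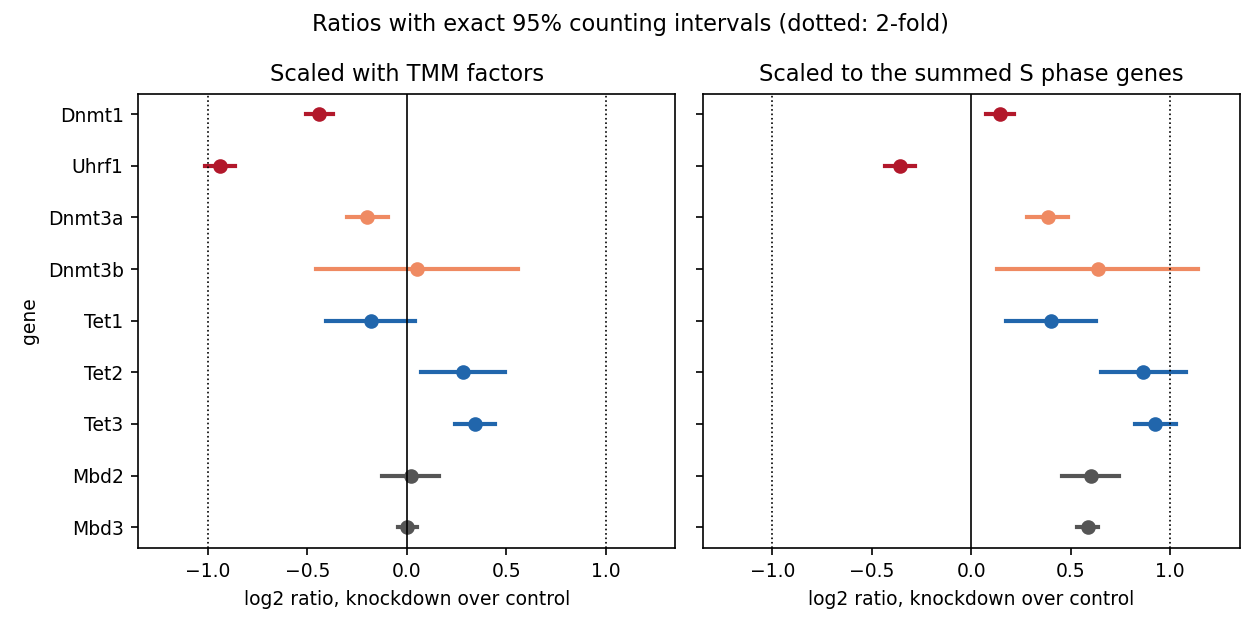
Log2 ratio of each gene, knockdown over control, with its exact 95% counting interval, after TMM scaling (left) and relative to the summed counts of the S phase genes (right), with dotted lines at 2-fold. On the left the intervals of Uhrf1, Dnmt1 and Dnmt3a lie below 0 and those of Tet2 and Tet3 above it, and on the right that of Uhrf1 alone lies below 0.

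Levels of different genes were compared as CPM per kilobase of merged exon. Mbd3 was highest in both libraries, at 214 CPM per kilobase in each. Uhrf1 followed at 32.7 in the knockdown and 62.6 in the control library, and then Dnmt1 at 25.3 and 34.2. Mbd2 stood at 15.6 and 15.4 CPM per kilobase. Tet3 and Dnmt3a exchanged places, with Tet3 at 6.92 and 5.45 and Dnmt3a at 5.32 and 6.10. Tet2 and Tet1 did so too, with Tet2 at 1.48 and 1.22 and Tet1 at 1.24 and 1.41 CPM per kilobase. Dnmt3b was lowest at 0.832 and 0.802. Per length, Dnmt1 made up 80.4% of the 3 methyltransferases in the knockdown and 83.2% in the control library, and Tet3 made up 71.7% and 67.5% of the 3 Tet genes. The merged length counts every annotated exon, so a gene that uses a short isoform is placed too low on this scale.

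**Figure D3:**
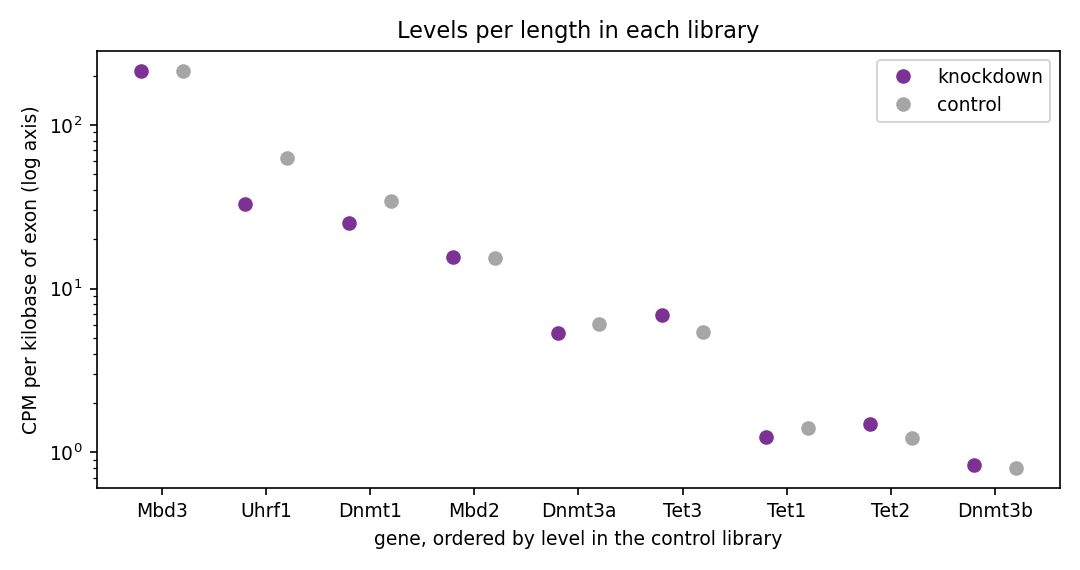
CPM per kilobase of merged exon (log axis) of each gene in the knockdown and control libraries, in order of the control level. Values run from 214 for Mbd3 to 0.832 and 0.802 for Dnmt3b, and the Uhrf1 points are furthest apart.

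Genes of the cell cycle were lower alongside the maintenance pair. All 26 S phase genes past the minimum were lower in the knockdown library, with a median log2 fold of -0.58. An interval below 1 was found for 25 of them, against 33.6% of all genes. Of that list 2 (7.69%) reached 2-fold, near the 7.76% of all genes that were lower by 2-fold. The furthest were the thymidylate synthase gene Tyms (-1.27), the origin licensing factor Cdc6 (-1.10) and the cyclin Ccne1 (-0.88). In the list of G2 and M phase, 24 of 24 genes were lower, with a median of -0.82. By 2-fold, 4 of them (16.7%) were lower, against 7.76% of all genes. Furthest among these were the cytokinesis scaffold Anln (-1.54), the kinesin Kif20a (-1.15) and the checkpoint kinase Bub1 (-1.06), followed by the kinetochore kinesin Cenpe (-1.05). Kif20a has 1271 exonic bases in common with Cdc23, which had 1169 counts in the knockdown and 1338 in the control library, so its value is uncertain if strand was not used in counting. After TMM scaling, the summed S phase counts were 0.668 times as high in the knockdown as in the control library. Set against that sum, which was chosen as a scale after seeing the data, Uhrf1 remained lower at 0.781 (0.740 to 0.823), while Dnmt1 was higher at 1.10 (1.05 to 1.16) and Dnmt3a at 1.30 (1.21 to 1.40). Tet3 and Tet2 were at 1.90 (1.77 to 2.04) and 1.82 (1.57 to 2.11) on the same scale. Relative to the summed G2 and M genes, Uhrf1 was at 0.872 (0.827 to 0.919) and Dnmt1 at 1.23 (1.17 to 1.30). The part of cell division in the levels of Uhrf1 and Dnmt1 was not tested.

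Partners of maintenance methylation were mostly lower as well. Of 8 such genes, 7 were lower, and the median log2 fold was -0.38. For 6 the interval lay below 1, against 33.6% of all genes, and 0 of 8 reached 2-fold, against 15.4%. Hells, the chromatin remodeller that helps methylate repeats, stood at 28.9 CPM in the knockdown and 45.2 CPM in the control library, a ratio of 0.639 (0.568 to 0.719). Lig1, the replicative DNA ligase whose methylated form binds Uhrf1, stood at 116 and 164 CPM, giving a ratio of 0.704 (0.664 to 0.748). The Uhrf1 paralogue Uhrf2 had 49.2 and 65.5 CPM, giving a ratio of 0.751 (0.684 to 0.824). Pcna, the replication clamp that binds Dnmt1, stood at 308 and 394 CPM, giving a ratio of 0.782 (0.754 to 0.812). Cdca7l, a relative of the Hells activator Cdca7, had 13.9 and 18.6 CPM (ratio 0.745, interval 0.624 to 0.888) and shares 642 exonic bases with Dnah11 on the opposite strand, which had 6 and 2 counts. Dmap1, a Dnmt1-associated protein, was the exception at 59.2 and 44.7 CPM, giving a ratio of 1.32 (1.20 to 1.46). Pcna, Hells and Lig1 were also set against the summed S phase counts, the scale chosen after seeing the data. None was clearly lower on it, with Pcna at 1.17 (1.13 to 1.22), Hells at 0.957 (0.849 to 1.08) and Lig1 at 1.05 (0.992 to 1.12). The other partners were not set against this sum.

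The partners of de novo and targeted methylation showed no common direction. Of 8 with a row, 3 were above and 5 below their control level, and the median log2 fold was -0.13. Of these, 0 reached 2-fold, against 15.4% of all genes. Zbtb24, a zinc finger protein whose loss causes a hypomethylation syndrome in humans, had 335 counts in the knockdown and 219 in the control library, a ratio of 1.64 (1.37 to 1.95). Zfp57, which protects methylation at imprinted regions, was lower at 50.3 and 73.5 CPM, giving a ratio of 0.684 (0.625 to 0.749). Its corepressor Trim28 stood at 469 and 582 CPM, giving a ratio of 0.806 (0.782 to 0.831).

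Of 17 genes of demethylation and base excision repair past the minimum, 2 reached 2-fold above and 1 below the control level, 17.6% against the 15.4% of all genes. Gadd45g, a stress-inducible protein with a reported role in demethylation and also a gene of neuronal progenitors, had 1980 counts in the knockdown and 512 in the control library. These are 126 and 30.4 CPM, giving a ratio of 4.13 (3.75 to 4.56). Cxxc4, which carries the CXXC domain split off from Tet2 in evolution, stood at 31.7 and 15.0 CPM, giving a ratio of 2.12 (1.82 to 2.48). Neil3, a DNA glycosylase of dividing cells, stood at 6.72 and 14.5 CPM, giving a ratio of 0.464 (0.366 to 0.585). Tdg, the glycosylase that acts after the Tet enzymes, had 360 and 386 counts and a ratio of 0.997 (0.861 to 1.15). Ogt, a Tet partner that adds sugar residues to proteins, stood at 159 and 122 CPM, giving a ratio of 1.30 (1.23 to 1.38). Idh2, a mitochondrial source of the Tet cosubstrate, stood at 175 and 223 CPM, giving a ratio of 0.783 (0.745 to 0.823). Idh1, also in this list, went the other way at 343 and 323 CPM, giving a ratio of 1.06 (1.02 to 1.10). Cxxc4 shares 243 exonic bases with an antisense gene.

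Among other readers, Mbd6 was the furthest from its control level. Mbd6, which has an MBD-like domain but is not known to bind methylated DNA, had 3324 counts in the knockdown and 1777 in the control library, or 211 and 105 CPM. Its ratio of 2.00 (1.89 to 2.12) lay just under the threshold, at a log2 fold of 0.999. Mbd5 stood at 24.2 and 16.2 CPM, giving a ratio of 1.49 (1.27 to 1.75), and Mbd1 at 76.2 and 54.4 CPM, giving a ratio of 1.40 (1.28 to 1.53). The zinc finger reader Zbtb4 was lower at 9.07 and 16.1 CPM, giving a ratio of 0.564 (0.457 to 0.693). Of the 8 readers in the list, 5 were above and 3 below their control level, and 0 reached 2-fold, against 15.4% of all genes.

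The NuRD subunits that work with Mbd2 and Mbd3 had a median log2 fold of 0.0020, which was -0.050 with scaling to total counts. Of 13, only Chd5 reached 2-fold (7.69%, against 15.4% of all genes). Chd5, the remodelling ATPase of neurons, stood at 25.9 CPM in the knockdown and 104 CPM in the control library, a ratio of 0.249 (0.223 to 0.277), beside the lower sum of the neuronal markers given above. The ATPase Chd4 was slightly higher at 472 and 412 CPM, giving a ratio of 1.15 (1.11 to 1.18), and Chd3 was lower at 294 and 368 CPM, giving a ratio of 0.800 (0.770 to 0.831). Rbbp7, a histone-binding subunit, stood at 181 and 275 CPM, giving a ratio of 0.658 (0.628 to 0.690), while its paralogue Rbbp4 stood at 241 and 237 CPM, giving a ratio of 1.02 (0.971 to 1.06). Mta2 was higher at 220 and 157 CPM (1.40, 1.33 to 1.47), and Mta3 lower at 12.6 and 19.0 CPM (0.665, 0.554 to 0.796). Hdac1 was at 64.2 and 64.1 CPM, while its paralogue Hdac2 was lower at 210 and 273 CPM (0.769, 0.735 to 0.804).

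Enzymes that supply the methyl donor lay within 2-fold in 10 of 10 cases, with a median log2 fold of -0.10. Mat2a, which makes S-adenosylmethionine, stood at 40.3 CPM in the knockdown and 25.4 CPM in the control library, a ratio of 1.59 (1.40 to 1.80). Shmt1, a folate cycle enzyme, stood at 44.2 and 66.6 CPM, giving a ratio of 0.664 (0.603 to 0.730), and Mtr, methionine synthase, at 15.0 and 19.5 CPM, giving a ratio of 0.772 (0.651 to 0.915). Over these 6 lists together, 4 of 64 genes past the minimum (6.25%) reached 2-fold, against 15.4% of all genes. The share over all genes was not matched to the lists for expression level, here or above.

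**Figure D4:**
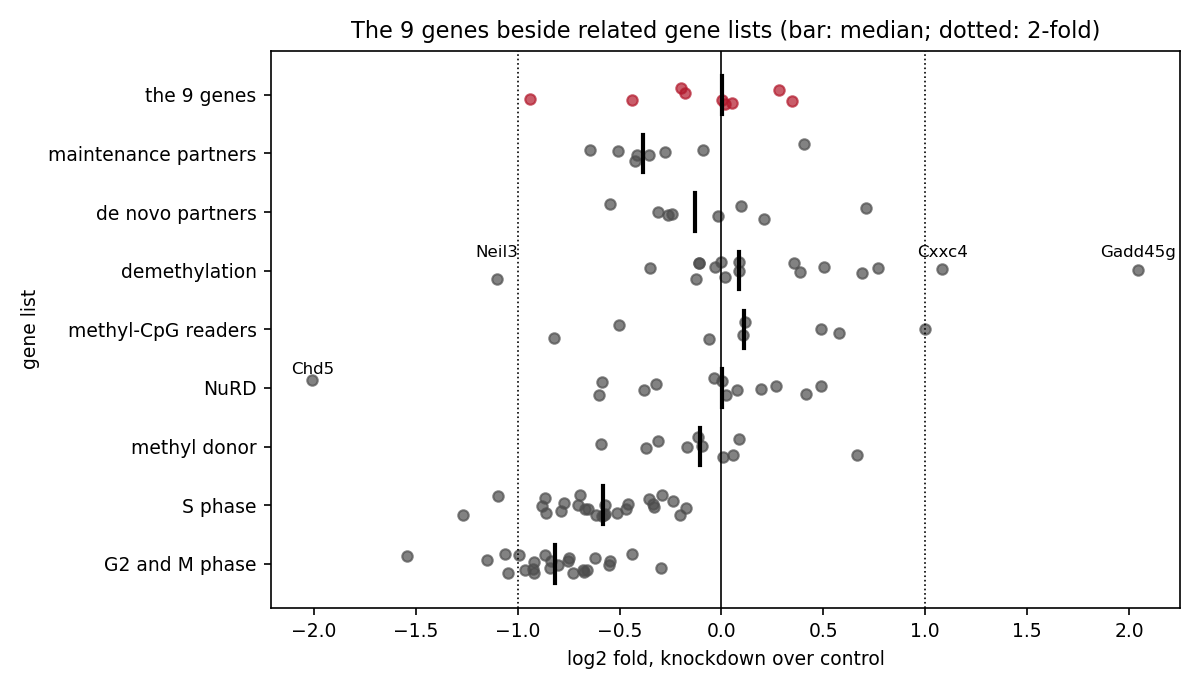
Log2 fold of each gene past the minimum, knockdown over control, for the 9 genes and 8 related lists, with a bar at each median and dotted lines at 2-fold. Genes past 2-fold outside the cell cycle lists are named (Gadd45g, Cxxc4, Neil3 and Chd5), and all S, G2 and M phase genes lie below 0.

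Genes that are kept silent by DNA methylation in somatic cells were barely detected in either library. Of 16 such germline genes, 6 had a row and 0 passed the minimum, with summed levels of 1.97 CPM in the knockdown and 2.61 CPM in the control library. All 6 intervals included 1, as for Ddx4, a germ cell helicase, with 7 and 18 counts (ratio 0.416, interval 0.147 to 1.04), and Slc25a31, a testis nucleotide carrier, with 7 and 1 counts (ratio 7.48, interval 0.961 to 337). The astrocyte genes known to be methylated in early neural progenitors were higher. Gfap stood at 481 CPM in the knockdown and 3.09 CPM in the control library, and S100b at 9.26 and 0.475 CPM, giving a ratio of 19.5 (9.64 to 46.0). Higher levels were not particular to these genes. All 7 astrocyte markers with a row were higher, with ratios from 1.42 for Slc1a2 to 156 for Gfap, as were all 9 of the oligodendrocyte lineage. The part of DNA methylation in these levels was not tested.

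With 1 library per group, the pattern of a gene is a single log2 fold, and the 162 other list genes past the minimum were ranked by how near theirs was. Of these, 50 were S, G2 or M phase genes, all of them lower, so the neighbours of a lowered member depend on which lists were taken. The gaps to the nearest genes were also smaller than the counting error of each member. The ranking is therefore a description and not a measure of likeness. Nearest to Uhrf1 were the mitotic genes Hmmr and Bub1b, both at -0.92. Nearest to Dnmt1 were the mitotic activator Cdc20 at -0.44 and Cdca7l at -0.42. Tet3 at 0.34 lay next to the radial glia gene Fabp7 at 0.34 and to Cxxc5 at 0.35. Tet2 at 0.28 was next to the intermediate filament gene Vim at 0.28 and the Cdk2 partner Cdk2ap1 at 0.27. Dnmt3a was nearest to the replication genes Rfc3 (-0.20) and Orc1 (-0.17), and Tet1 to Orc1 and the folate cycle gene Mtrr (-0.17). Nearest to Mbd2 were the repair scaffold Xrcc1 at 0.018 and the NuRD subunit Rbbp4 at 0.022. Mbd3 lay next to the deacetylase Hdac1 at 0.0020 and to Mat2b, a subunit of the enzyme that makes the methyl donor, at 0.0074.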

How the data were processed

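Total RNA was sequenced from 1 knockdown and 1 control library. Per the submitters' processing notes, Bowtie2 2.2.3, TopHat2 2.0.12, HTSeq 0.6.0 and the build mm9 were named, without roles or settings. The table's positions of all 9 genes match GENCODE M21 (GRCm38). The authors deposited raw counts per gene, per the file headers, together with CPM, a fold change (ratio), its log2 and a p-value with no named test. The deposited p-values were not used.

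Counts were scaled with TMM factors (edgeR 4.0.16). The log2 fold adds 0.5 to each count, and a gene needed a mean of 1 CPM over both libraries. Intervals are exact conditional ones (scipy 1.17.1), for ratios between genes from the conditional odds ratio, and PCR copies are not independent molecules. The calculation was tested on simulated data. Exon lengths and overlaps came from GENCODE M21 and promoters from RefSeq. Alternatives were total counts, DESeq2 1.42.0 size factors, the authors' CPM, other minimums, prior count and threshold.

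The members and gene lists were chosen with earlier results of these data known. All members were named, with the furthest and the 2-fold genes of each related list. Other genes of those lists are named for their role. Of the cell type lists, whose 3 furthest genes were to be named, sums and medians are given instead, with some genes named for their weight or direction.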

Additional observations from a re-analysis of the deposited data

How the results depend on the processing

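Uhrf1, Dnmt1 and Dnmt3a stayed lower and Tet2 and Tet3 higher under total counts, DESeq2 size factors and the authors' CPM, and no member reached 2-fold under these, another minimum or a prior count of 5. Log2 folds ran from -0.99 to -0.94 for Uhrf1 and from 0.29 to 0.34 for Tet3, and the sign for Mbd2 and Mbd3 varied. At 1.5-fold, 1 member (Uhrf1) was lower and 2259 genes were higher and 2218 lower. The 2-fold counts over all genes, 1082 higher and 1098 lower, were 2286 and 2475 without a minimum and 500 and 496 at 10 CPM, where other genes were tested. Relative to summed lists, scales added after seeing the data, signs turned. Dnmt1 was at 0.14 and Dnmt3a at 0.38 (log2) relative to S phase genes, and at 0.30 and 0.54 relative to G2 and M genes. Relative to neural stem cell markers, Tet2 was at -0.11 and Tet3 at -0.045. The ratios between paralogues do not depend on library scaling, so the authors' CPM could not test them. The authors' CPM also gave nearly the same log2 folds as total counts (-0.49 for Dnmt1 under both) and are not a separate check. No paired analysis was possible because each group has 1 library.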

Other observations

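Relative to the summed neural stem cell markers, whose counts were 1.31 times as high in the knockdown as in the control library after scaling, all 9 genes had ratios below 1. The ratio was 0.398 (0.378 to 0.419) for Uhrf1, 0.564 (0.537 to 0.591) for Dnmt1 and 0.666 (0.620 to 0.715) for Dnmt3a. For Tet3 it was 0.970 (0.905 to 1.04) and for Tet2 0.929 (0.802 to 1.08), with 1 inside both intervals. This scale was chosen after seeing the data, and the 10 markers differ in how far each was higher. Vim and Fabp7, with 55024 and 42799 of the 137883 knockdown counts and ratios of 1.21 and 1.26, set most of it. The median log2 fold of the markers was 0.75, so whether 1 lies inside an interval depends on the weight of these abundant genes.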
